A study of Mus musculus with 6 samples.

Results

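Troponins and tropomyosins are the calcium-dependent switch on the actin filament of striated muscle, and their slow and fast isoforms were followed here at the level of the transcript in thigh muscle of wild-type and ERRγ-transgenic mice. The set holds 10 genes: the slow troponins Tnnt1, Tnni1 and Tnnc1, the fast troponins Tnnt3, Tnni2 and Tnnc2, the cardiac and developmental troponin T Tnnt2, and the tropomyosins Tpm1, Tpm2 and Tpm3. These are 10 of 18193 genes with a probe set of their own on the array. Every non-control probe set whose platform annotation names 1 of these genes and no other was taken, which gave 24 of 45037 non-control probe sets, and 0 probe sets name a member together with another gene.

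The arrays, 3 per genotype, measured quadriceps, a thigh muscle made mostly of fast fibres, from male C57/BL6 mice aged 8 weeks. The control animals were wild-type. In the transgenic animals the skeletal actin promoter (labelled hSkeletal Actin), which is active in skeletal muscle fibres, drove ERRγ. This protein is the product of Esrrg, a nuclear receptor with no known natural ligand that is known for driving genes of oxidative metabolism. The number of founder lines is not given in the sources used here, and the titles call the animals of each genotype biological replicates.

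The signals are MAS5 intensities, which the deposited table gives on a linear scale, and the 2% trimmed mean of each array was 200. The brightest Esrrg probe set read 71.6, 61.0 and 24.1 in wild-type animals 1, 2 and 3 and 14427.2, 13807.7 and 12697.0 in transgenic animals 1, 2 and 3, in accord with the labels. Median signals were 52.1 to 56.1 over the wild-type arrays and 57.0 to 61.8 over the transgenic arrays. Every transgenic array thus had a higher median than every wild-type array. Spearman correlations of arrays were 0.935 to 0.955 for animals of the same genotype and 0.906 to 0.930 for animals of different genotypes. Skeletal muscle markers were bright on every array, and their summed signal was 83390 to 106100 over the wild-type arrays and 104700 to 115600 over the transgenic arrays. That sum includes the myoglobin gene Mb, with means of 6933 in wild-type and 18720 in transgenic muscle, so it is not a measure of muscle content alone. Transgenic animal 3 stood apart from the other transgenic animals in several of the genes described here, so results in which it was high are also given without its array.

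Troponin is a complex of a calcium-binding subunit (C), an inhibitory subunit (I) and a subunit that ties the complex to tropomyosin (T). When calcium binds troponin C, the inhibition by troponin I is relieved and tropomyosin moves on the actin filament, so that myosin can bind. Slow fibres and fast fibres use separate genes for each troponin subunit, and the tropomyosin genes also differ in their use between fibre types: Tpm3 gives the slow α-tropomyosin, Tpm1 the fast and cardiac α-tropomyosin, and Tpm2 the β-tropomyosin of both fibre types.

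Since ERRγ binds DNA, the sequence just upstream of the members' starts is shown for the 3 slow troponin genes and for Tpm3, whose transcripts carry the comparison of slow with fast isoforms. Of the 10 members, 8 matched the RefSeq promoter table of assembly GRCm38.p6, with 11 windows, while Tnnt3 and Tnni2 are named only. Each line gives the 250 bases before an annotated start, 5′ to 3′ on the gene's own strand, and capitals mark a match to a searched motif.

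Tnnt1 (chr7:4515976-4516225, minus strand): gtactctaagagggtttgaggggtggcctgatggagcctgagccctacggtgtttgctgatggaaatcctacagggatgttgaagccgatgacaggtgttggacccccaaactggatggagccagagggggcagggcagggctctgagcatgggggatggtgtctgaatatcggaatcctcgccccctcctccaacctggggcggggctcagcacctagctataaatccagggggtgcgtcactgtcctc

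Tnni1, first window (chr1:135799171-135799420, plus strand): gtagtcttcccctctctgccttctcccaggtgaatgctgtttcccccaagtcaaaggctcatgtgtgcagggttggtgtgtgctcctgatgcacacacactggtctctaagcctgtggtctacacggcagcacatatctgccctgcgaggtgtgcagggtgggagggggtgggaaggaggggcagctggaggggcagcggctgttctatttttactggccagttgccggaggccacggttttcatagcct

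Tnnc1 (chr14:31208062-31208311, plus strand): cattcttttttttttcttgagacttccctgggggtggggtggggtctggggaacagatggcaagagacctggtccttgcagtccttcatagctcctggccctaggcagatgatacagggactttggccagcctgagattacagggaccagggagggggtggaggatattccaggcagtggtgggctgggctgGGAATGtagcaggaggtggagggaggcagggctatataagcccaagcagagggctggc

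Tpm3, first window (chr3:90072401-90072650, plus strand): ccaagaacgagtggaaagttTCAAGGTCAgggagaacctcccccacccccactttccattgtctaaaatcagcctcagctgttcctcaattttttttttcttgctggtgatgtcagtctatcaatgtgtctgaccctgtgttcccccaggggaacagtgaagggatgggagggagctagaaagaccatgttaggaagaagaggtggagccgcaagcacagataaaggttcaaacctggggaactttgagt

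Tpm3, second window (chr3:90079271-90079520, plus strand): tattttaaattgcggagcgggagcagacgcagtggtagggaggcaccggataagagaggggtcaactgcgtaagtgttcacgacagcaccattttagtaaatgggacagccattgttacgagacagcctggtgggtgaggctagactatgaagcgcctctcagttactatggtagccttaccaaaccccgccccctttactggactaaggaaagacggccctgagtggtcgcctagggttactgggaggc

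On both strands, windows of 250 bases before to 50 after the start were searched for the ERR response element (TNAAGGTCA), for the receptor half-site core inside it (AAGGTCA), for the muscle CAT element MCAT (CATTCC), which binds TEAD factors, and for the MEF2 site. The ERR response element was found in 1 of the 11 member windows, the first Tpm3 window, on the plus strand from base -230 to -222 before the start. It lies in 421 of the 32851 RefSeq windows searched (1.28%), and the core that overlaps it lies in 1550 of them (4.72%) and, among the members, at that same place. MCAT was found in Tnnc1, on the minus strand with its first base at -58 (GGAATG as printed), and also in Tpm1 and in a Tnnt2 window, against 4817 of all windows (14.7%). The MEF2 site was found in 183 of all windows (0.557%) and in 0 member windows. A match describes these letters only. The files do not give which Tpm3 start the transcripts read by each Tpm3 probe set come from.

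Among the troponin genes, slow troponin T rose in the transgenic muscles, and no fast troponin gene passed the test at its brightest probe set. The rise of Tnnt1 was 2.48 on the log2 scale, while Tnni1 and Tnnc1, the slow troponins I and C, had estimates above 0 that did not pass the test. The fast genes Tnnt3, Tnni2 and Tnnc2 had differences between 0.02 and 0.06 at their brightest probe sets. Differences and their tests are on log2(signal + 16), with transgenic minus wild-type as the direction, and a probe set is called when its limma p adjusted by Benjamini-Hochberg over all 27018 tested probe sets is below 0.05. Of the 24 member probe sets, 22 had a mean signal over the 6 arrays above the 40th percentile (37.7) and were tested, and both others belong to Tnnt2. Among these 22, 1 was called higher, 2 were called lower and 19 were not called, against backgrounds of 6.37% called higher and 5.16% called lower over all tested probe sets (1721 and 1394). At an unadjusted limma p below 0.05, 4 members were higher and 3 lower. The share of all tested probe sets or genes at that level is not given, so such counts, here and below, are not read as a result. With 1 array left out, 2 members were called higher without wild-type 2 or transgenic 1, and 1 was called lower when the array omitted was 1 or 2 of either genotype. When the arrays were brought to the same median, the split over all probe sets turned to 1357 higher and 1778 lower, so that 43.3% of calls were higher in place of 55.2%. With 3 arrays per genotype, the precision is set by their number.

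**Figure D1:**
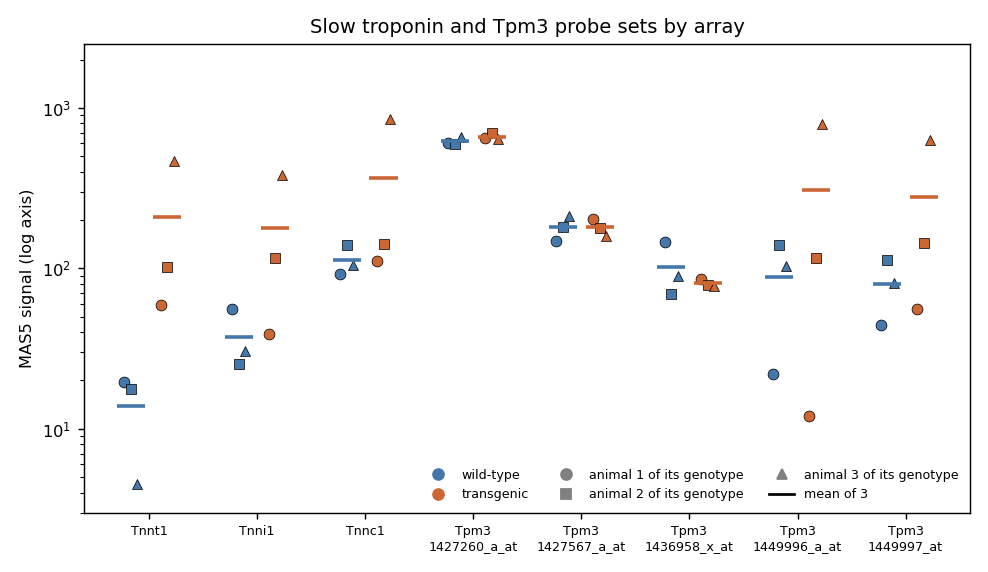
MAS5 signal (log axis) of the slow troponin probe sets and the 5 Tpm3 probe sets, 1 point per array, with wild-type in blue, transgenic in orange, a symbol for each animal number and a line at the mean of 3. Transgenic animal 3 (orange triangle) lies over 3-fold above both other transgenic animals at Tnnt1, Tnni1, Tnnc1 and the Tpm3 probe sets 1449996_a_at and 1449997_at, and not at the other 3 Tpm3 probe sets.

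Tnnt1, the slow subunit that ties troponin to tropomyosin, was read by 1 probe set (1419606_a_at). Its signals were 19.6, 17.6 and 4.5 in wild-type animals 1, 2 and 3 and 58.6, 102.0 and 464.9 in transgenic animals 1, 2 and 3. The groups did not overlap, and animal 3 was the lowest of its genotype in wild-type and the highest in transgenic muscle. Every wild-type signal lay below the level of the filter, so the probe set was tested only because of its transgenic signals. With no filter its limma adjusted p was 0.0477. In whole muscle, more slow fibres and more RNA per fibre cannot be told apart. The means were 13.9 ± 8.20 and 208.5 ± 223.1 (SD, n = 3), and the log2 difference was 2.48 (SE 0.57, 95% interval 1.21 to 3.74, limma adjusted p = 0.0187). Without transgenic animal 3 the difference was 1.69 (limma adjusted p = 0.0473). The call was lost without the intensity trend of the variance model (adjusted p = 0.0724 in limma) and without animal 3 of both genotypes (difference 1.44, adjusted p = 0.0592 in limma).

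Tnni1, the slow inhibitory subunit, was also read by 1 probe set (1450813_a_at). It read 55.7, 25.2 and 30.5 in wild-type animals 1, 2 and 3 and 39.1, 115.9 and 382.7 in transgenic animals 1, 2 and 3. Transgenic animals 2 and 3 were above all wild-type animals and transgenic animal 1 was within their range. The wild-type mean, 37.1, lay just under the filter, so this probe set too was tested only because of its transgenic signals. The difference of 1.47 (SE 0.57, 95% interval 0.22 to 2.72) did not pass over all probe sets (limma adjusted p = 0.129). It was 0.72 without transgenic animal 3 (limma adjusted p = 0.344), and it was called at 2.15 without transgenic animal 1 (limma adjusted p = 0.0206).

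Tnnc1, the calcium-binding subunit of slow fibres and of the heart, gave 92.1, 140.3 and 104.8 in wild-type animals 1, 2 and 3 and 110.5, 141.2 and 846.3 in transgenic animals 1, 2 and 3 (probe set 1418370_at). Transgenic animals 1 and 2 lay at the wild-type level, the second above its highest animal by less than 1 unit, and transgenic animal 3 was 5.99 times the higher of them. This gave a difference of 1.02 (SE 0.56, 95% interval -0.22 to 2.27, limma adjusted p = 0.289), and of 0.15 without transgenic animal 3 (limma adjusted p = 0.715).

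The fast troponins were read by 5 probe sets, of which 1 was called lower and 4 were not called. At an unadjusted limma p below 0.05 the counts were 0 higher and 1 lower. Their median log2 difference was 0.03, beside 0.05 over all tested probe sets. Tnnt3, fast troponin T, had signals of 28449.0, 23135.5 and 21877.7 in wild-type animals 1, 2 and 3 and 24404.1, 26178.4 and 23267.6 in transgenic animals 1, 2 and 3. The transgenic signals lay within the wild-type range, with a difference of 0.02 (SE 0.11, 95% interval -0.23 to 0.26, limma adjusted p = 0.949). Tnnc2, fast troponin C, read 16583.3, 14383.8 and 13245.5 against 15906.1, 14964.8 and 14197.6, again within the wild-type range (difference 0.03, SE 0.10, 95% interval -0.19 to 0.26). The signs of these small differences turn with the scaling of the arrays, so no direction is given for them.

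Tnni2, fast troponin I, was read by 3 probe sets that did not move together. The brightest, 1416889_at, gave wild-type signals of 24623.9, 21962.1 and 18717.8 and transgenic signals of 21786.6, 24260.4 and 21643.1 (difference 0.06, SE 0.11). The second, 1438609_x_at, had the same difference of 0.06 (SE 0.11, limma adjusted p = 0.803). The third, 1438608_at, comes from the same source sequence record as the second but was far dimmer, with 515.1, 440.1 and 374.9 in wild-type animals 1, 2 and 3 and 312.5, 269.4 and 302.1 in transgenic animals 1, 2 and 3. All transgenic animals were below all wild-type animals there, and the probe set fell by 0.56 (SE 0.14, limma adjusted p = 0.0311). That call was lost on leaving out any 1 array other than wild-type 3, with a limma adjusted p of 0.137 when wild-type 1 was omitted, 0.0932 for wild-type 2, and 0.0676, 0.0952 and 0.0664 for transgenic 1, 2 and 3. It was also lost without the intensity trend (limma adjusted p = 0.0878). Which part of the transcript each probe set reads is not given in the sources used here.

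**Figure D2:**
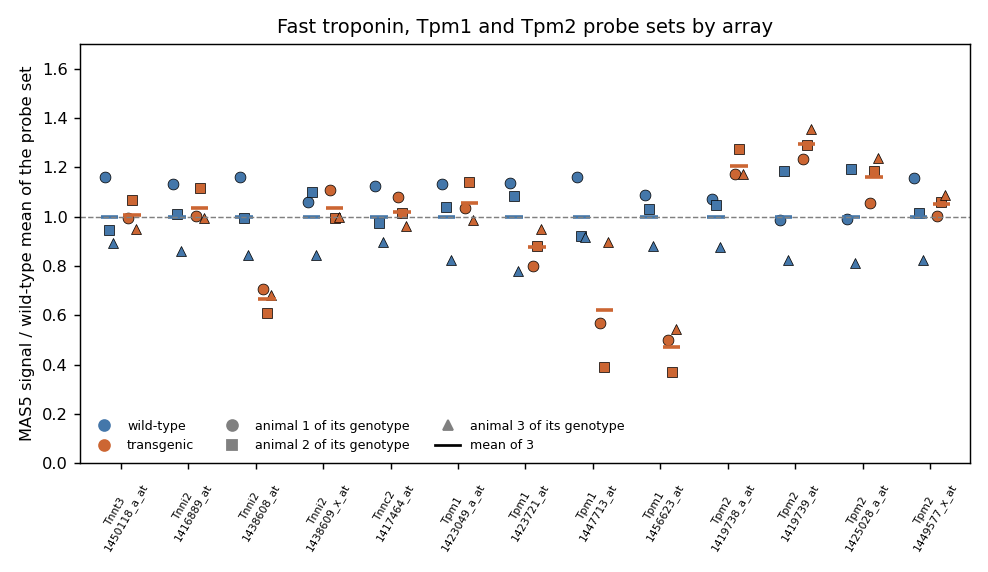
MAS5 signal divided by the wild-type mean of the same probe set, for the probe sets of Tnnt3, Tnni2, Tnnc2, Tpm1 and Tpm2, 1 point per array, with a line at each mean of 3 and a dashed line at the wild-type mean. The transgenic points lie below the wild-type points at Tnni2 1438608_at and at Tpm1 1447713_at and 1456623_at, lie above them at Tpm2 1419738_a_at and 1419739_at, and overlap them at the other 8 probe sets.

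Slow and fast isoforms were then compared within each array, as log2 of the slow gene minus log2 of the fast gene at the brightest probe set of each. This quantity needs no common scaling of the arrays, but between genes it mixes abundance with probe brightness, so only its change between genotypes is read. For troponin T, Tnnt1 minus Tnnt3 was -9.64, -9.43 and -10.06 in wild-type animals 1, 2 and 3 and -8.35, -7.79 and -5.60 in transgenic animals 1, 2 and 3. The groups were apart, with a shift of 2.46 on the log2 scale, and the exact two-sided permutation p was 0.1, which is the smallest that 3 arrays against 3 can give. Without transgenic animal 3 the shift was 1.64. Tnnt1 is dim, so the size depends on the constant added before the logarithm, and the shift was 3.45 with 1 and 1.49 with 64 in place of 16.

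For troponin I, Tnni1 minus Tnni2 was -8.42, -9.06 and -8.65 in wild-type muscle against -8.63, -7.52 and -5.76 in transgenic animals. Transgenic animal 1 was within the wild-type range, and the shift of 1.41 (exact two-sided permutation p = 0.2) became 0.64 without transgenic animal 3. For troponin C, Tnnc1 minus Tnnc2 was -7.26, -6.53 and -6.78 in wild-type muscle against -6.98, -6.57 and -4.04 in transgenic animals. Here the first 2 transgenic animals were within the wild-type range, and the shift of 0.99 (exact two-sided permutation p = 0.5) became 0.08 without transgenic animal 3. For tropomyosin, Tpm3 minus Tpm1 moved by -0.0033 at the brightest probe set of each (exact two-sided permutation p = 1.0). Against the same Tpm1 probe set, Tpm3 1427567_a_at gave -0.08 and 1436958_x_at gave -0.31. Probe sets 1449996_a_at and 1449997_at gave 0.61 and 1.01, which became -0.68 and 0.10 without transgenic animal 3. Averaging the log2 values of all tested probe sets of each gene gave 0.81, a value not recomputed without transgenic animal 3. Which Tpm3 probe set reads the slow form was not tested, so this pair does not settle the balance of slow and fast tropomyosin. The 4 pairs at the brightest probe sets form 1 family, and none could pass 0.05 by the permutation test before or after adjustment.

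**Figure D3:**
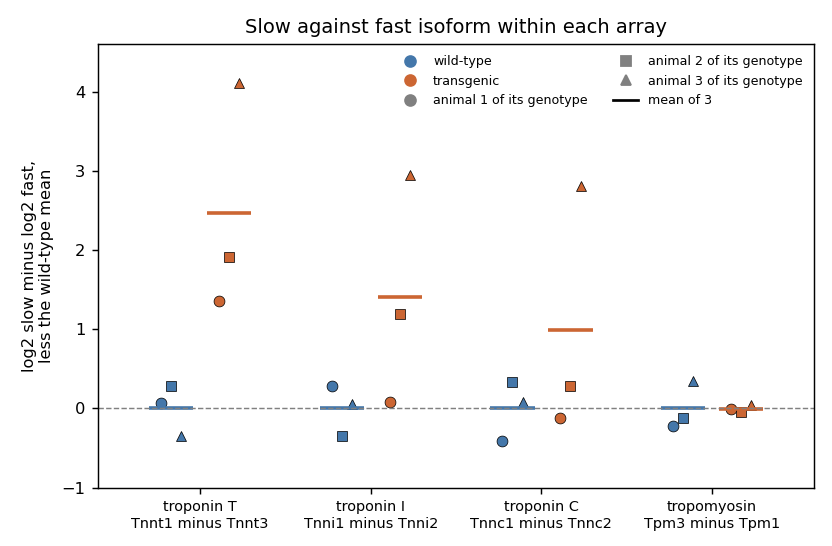
Log2 of the slow gene minus log2 of the fast gene within each array, less the wild-type mean of that pair, at the brightest probe set of each gene, 1 point per array with a line at the mean of 3. Troponin T is the pair with all transgenic points above all wild-type points, transgenic animal 3 is the highest point of each troponin pair, and the tropomyosin points overlap.

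Tnnt2, the troponin T of heart and of developing skeletal muscle, was dim on every array. Its brightest probe set, 1418726_a_at, read 43.3, 33.9 and 37.6 in wild-type muscle against 40.2, 26.3 and 46.0 in transgenic animals, just above the level of the filter (difference -0.04, SE 0.31, limma adjusted p = 0.958). The others were not tested, with 4.9 to 17.5 against 6.2 to 27.2 for 1440424_at, and with 6.0 to 60.2 against 3.6 to 31.6 for 1424967_x_at. The genotypes overlapped at all 3 probe sets.

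Among the tropomyosins, 1 Tpm1 probe set fell, no Tpm2 or Tpm3 probe set passed the test, and the probe sets of a gene did not move together. Tpm1, the α-tropomyosin of fast fibres and heart, was read by 4 probe sets with a median difference of -0.46. The brightest, 1423049_a_at, gave wild-type signals of 17890.4, 16425.7 and 13040.6 and transgenic signals of 16323.2, 18019.7 and 15605.0, with overlapping groups (difference 0.09, SE 0.12, 95% interval -0.18 to 0.35). At 1456623_at the signals were 1218.0, 1150.5 and 985.6 in wild-type animals 1, 2 and 3 and 557.7, 413.0 and 608.9 in transgenic animals 1, 2 and 3. Every transgenic animal was below every wild-type animal, the ratio of means was 0.471, and the probe set fell by 1.08 (SE 0.15, limma adjusted p = 0.0014), a call that held in all 16 other settings tried.

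At Tpm1 1447713_at the signals were 4630.4, 3676.8 and 3664.9 in wild-type animals and 2268.7, 1564.5 and 3586.0 in transgenic animals 1, 2 and 3. The groups were apart, but transgenic animal 3 lay close under the lowest wild-type animal. A difference of -0.76 (SE 0.24, limma adjusted p = 0.0667) was not called. Without transgenic animal 3 it was -1.07 and called (limma adjusted p = 0.00718). It was also called under a common median scaling (limma adjusted p = 0.047) and without animal 3 of both genotypes (limma adjusted p = 0.00598). The dimmest Tpm1 probe set, 1423721_at, ranged from 208.6 to 303.6 with overlapping groups (difference -0.16, SE 0.16).

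Tpm2, the β-tropomyosin, had small estimates above 0 at its 4 probe sets, with a median of 0.25. By limma 0 of them were called, and 2 had an unadjusted p below 0.05. Probe set 1419739_at read 5152.8, 6186.1 and 4304.5 in wild-type muscle against 6430.2, 6737.7 and 7064.0 in transgenic animals (difference 0.38, SE 0.13, 95% interval 0.11 to 0.66, limma adjusted p = 0.0773, and 0.0313 with a difference of 0.52 when wild-type animal 2 was left out). Probe set 1419738_a_at read 8537.8, 8356.4 and 7001.4 against 9329.6, 10151.6 and 9342.3 (difference 0.27, SE 0.10, limma adjusted p = 0.112). In both, all transgenic animals were above all wild-type animals. The groups overlapped at 1425028_a_at (difference 0.23, SE 0.13) and at the brightest probe set 1449577_x_at (difference 0.08, SE 0.12), and 3 of the 4 probe sets, this one among them, share a source sequence record.

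Tpm3, the gene of slow α-tropomyosin that also gives non-muscle forms in most cells, was read by 5 probe sets that showed 2 patterns over the arrays. By limma 0 of them were called and 0 had an unadjusted p below 0.05. At 1427260_a_at, the brightest, signals were 607.8, 598.7 and 662.1 in wild-type muscle against 645.6, 696.4 and 640.1 in transgenic animals (difference 0.08, SE 0.11). A further pair of probe sets, 1427567_a_at (difference 0.01, SE 0.17) and 1436958_x_at (difference -0.23, SE 0.24), also had overlapping groups, and at none of these 3 was transgenic animal 3 above both other transgenic animals. At 1449997_at the signals were 44.5, 112.6 and 80.8 in wild-type muscle against 55.7, 142.8 and 631.7 in transgenic animals 1, 2 and 3 (difference 1.10, SE 0.62, limma adjusted p = 0.305). At 1449996_a_at they were 22.0, 138.8 and 103.1 in wild-type muscle against 12.0, 115.9 and 790.0 in transgenic animals 1, 2 and 3 (difference 0.70, SE 0.96, limma adjusted p = 0.700). Transgenic animal 3 was high at both, and without it the differences were 0.23 and -0.55. These 2 probe sets share 1 source sequence record, so they are not independent readings.

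Over the 22 tested probe sets, all transgenic animals were above all wild-type animals at 3 and below them at 3, while 16 overlapped. Over all tested probe sets these shares were 17.8% above and 13.1% below, so the members' counts of 3 in each direction are read against that level.

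**Figure D4:**
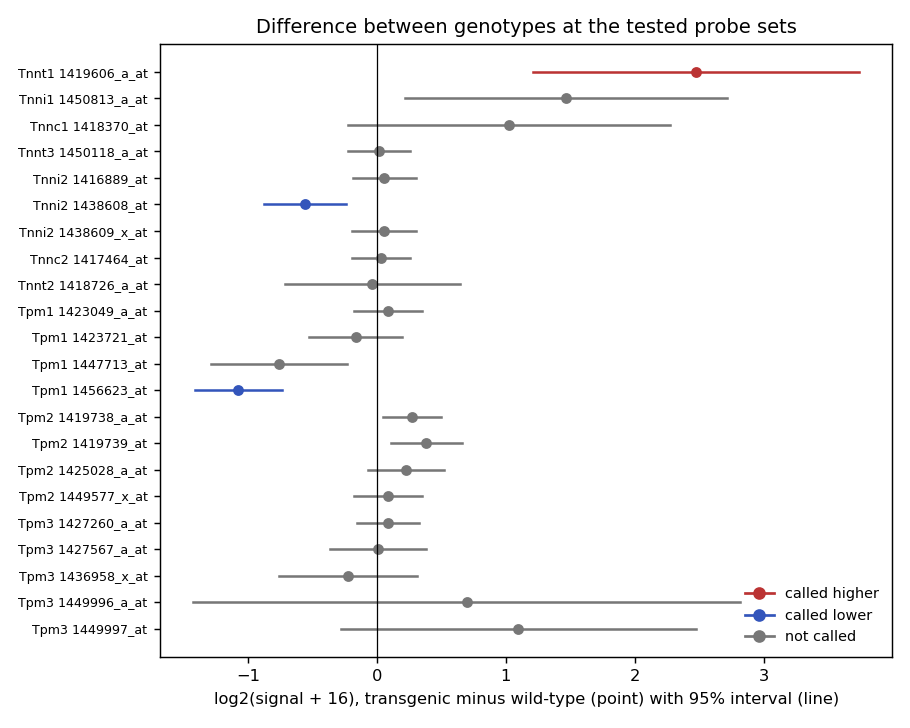
Log2 difference, transgenic minus wild-type, of log2(signal + 16) for each of the 22 tested probe sets (point) with its 95% interval from limma (line, not adjusted for the number of probe sets), red where called higher, blue where called lower and grey where not called. Tnnt1 is the red point at 2.48, Tpm1 1456623_at at -1.08 and Tnni2 1438608_at at -0.56 are blue, and the intervals of Tpm3 1449996_a_at, Tpm3 1449997_at and the slow troponins are wider than those of the fast troponins.

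Transgenic animal 3 was thus over 3-fold above both other transgenic animals at 5 tested member probe sets: those of the 3 slow troponins and 2 of Tpm3. The untested Tnnt2 probe set 1424967_x_at also passed this limit. It read 3.6, 5.9 and 31.6 in transgenic animals 1, 2 and 3, all below the level of the filter. This limit was chosen after the values were seen. Over all tested probe sets, 53 (0.196%) passed it, and the same limit was passed by 0.222% for transgenic animal 1 and 0.200% for transgenic animal 2. Transgenic animal 3 was over 3-fold below both other transgenic animals at 184 tested probe sets. Of the 53, 10 had a signal above 200 in transgenic animal 3, and all 10 are annotated to contractile genes of slow fibres, 1 of them jointly with the cardiac Myh6: the 5 member probe sets, 2 of Myl3, 1 of Myl2, 1 of Myh7 and 1 that names Myh7 and Myh6 together. The other 43 had signals of at most 129.7 there, and the lowest of the 10 read 345.3, so the bound of 200 falls in a gap. That bound cuts the same array's signals a further time. The share of all tested probe sets above it is not given, so no test rests on it.

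The heart shares Tnnc1, Tnnt2, Myl2, Myl3 and Myh7 with slow or developing skeletal fibres, so heart markers were read beside the members. Of 7 heart markers, 5 (Tnni3, Myh6, Nppa, Nppb and Myl7) were below the filter, with signals of 7.3, 26.9, 18.2, 25.1 and 16.2 in transgenic animal 3, and of the 2 tested 0 were called by limma and 0 had an unadjusted p below 0.05. The summed signal of the list was 14060 to 16540 in wild-type and 11840 to 14330 in transgenic muscle, nearly all of it from Actc1, an actin that was bright in every muscle. Of 8 tested markers of developing or regenerating fibres 1 was called higher and 1 lower: Chrna1, a subunit of the acetylcholine receptor, rose by 1.24 and Myh8, the perinatal myosin heavy chain, fell by 1.76. All tested genes had shares of 7.64% called higher and 5.75% lower. The summed signal of the 10 developing markers with a probe set was 1226 to 1535 in wild-type and 1414 to 1702 in transgenic muscle.

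Of 12 tested slow-fibre contractile and calcium genes outside the members, 7 were called higher and 5 were not called, with a median difference of 1.98, against 7.64% higher and 5.75% lower over the 12537 tested genes (958 and 721) and a median of 0.03. At an unadjusted limma p below 0.05, 10 were higher and 0 lower. The largest among those called were Ankrd2, a stretch-responsive titin-binding protein (3.26), Myl2, the slow regulatory light chain (3.11), Csrp3, the muscle LIM protein (2.97), and Casq2, the slow and cardiac calsequestrin (2.10). Myl3, a slow essential light chain, was not called at its brightest probe set (2.15, limma adjusted p = 0.0795) and was called at both others (2.67 and 2.72). Myh7, the slow myosin heavy chain, had a difference of 2.82 and was not called (limma adjusted p = 0.0605). Myh7 (wild-type mean 8.23) and the first of those other Myl3 probe sets (6.27) were tested only because of their transgenic signals. The same holds for Myom3 (wild-type mean 29.97), which is among the 7 called higher (1.85, limma adjusted p = 0.00524). Without transgenic animal 3 again 7 of the 12 were called higher, and the median was 1.60. The difference of Myl2 was then 2.29 and called (limma adjusted p = 0.000445). The brightest Myl3 probe set then had 1.09 (limma adjusted p = 0.101), and of its others 1 lost its call (1.88, limma adjusted p = 0.0987) and 1 kept it (1.86, limma adjusted p = 0.0164). Myh7 had 1.61 without that array (limma adjusted p = 0.150). The list was written with earlier results of these data known. Its genes differed in how the transgenic animals were ordered. Myl2 read 302.8, 395.7 and 1954.3 in transgenic animals 1, 2 and 3 after 53.1 to 63.6 in wild-type, while Ankrd2 read 1344.5, 1892.6 and 1644.1 after 92.2 to 241.4 and Casq2 read 779.8, 792.3 and 973.9 after 145.0 to 208.8. The summed signal of the list was 6174 to 8256 in wild-type muscle against 14950, 16070 and 20280 in transgenic animals 1, 2 and 3.

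**Figure D5:**
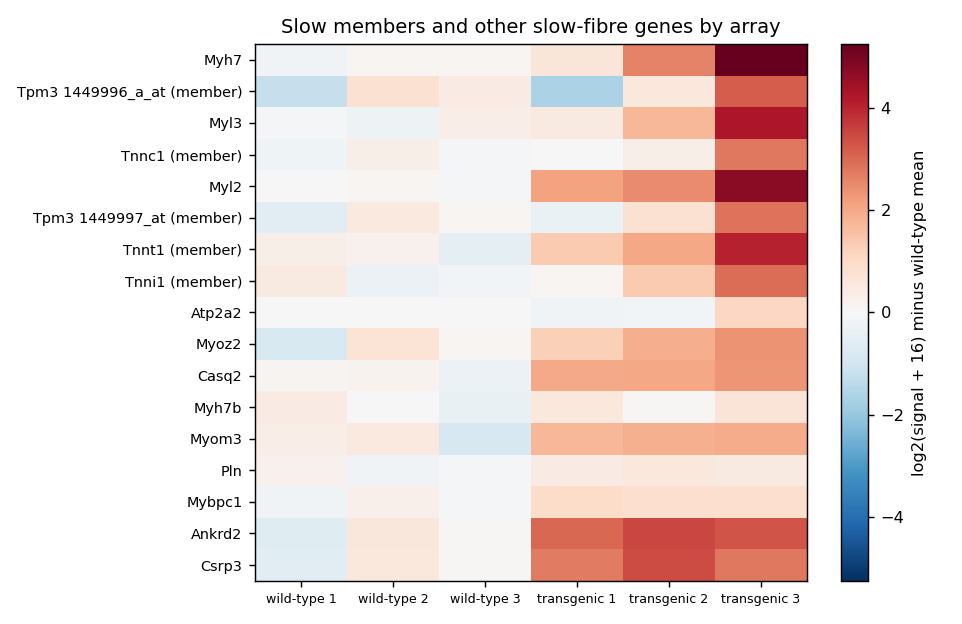
Log2(signal + 16) minus the wild-type mean, as colour, for the slow members and the other slow-fibre genes (rows) on each array (columns), with rows ordered by how far transgenic animal 3 exceeds the higher of the other transgenic animals. From the row of Myh7 down to that of Tnni1 transgenic animal 3 is well above the others, while Ankrd2 and Csrp3 at the foot are high in all 3 transgenic animals.

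By the root mean square difference of centred log2 values over the 6 arrays, the gene most like Tnnt1 was Myl2 (0.39), followed by Myl3 (0.55) and Myh7 (0.67). For Tnni1 the nearest were Sln, which encodes sarcolipin (0.48), Myl3 (0.55) and Eda (0.61). For Tnnc1 they were Cyp26b1 (0.49), Ikzf3 (0.57) and Atp2a2, the slow and cardiac calcium pump (0.62). At its brightest probe set the pump read 775.1 to 798.3 in wild-type muscle and 689.0, 709.5 and 1700.5 in transgenic animals 1, 2 and 3. There it too was high in transgenic animal 3 alone among the transgenic animals. Its 4 other tested probe sets were not called, with differences of 0.225, 0.227, 0.594 and -0.332. Without transgenic animal 3 these were 0.184, 0.185, 0.552 and -0.749, so they did not all share that pattern. Sln, Eda, Cyp26b1 and Ikzf3 were dim, with at most 133.1, 78.6, 129.7 and 125.8. Their wild-type means lay under the level of the filter, so they were tested only because of their transgenic signals. These are likenesses over 6 arrays, with no test.

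Of 10 tested fast-fibre genes outside the members, 1 was called higher and 9 were not called by limma, with a median of -0.01. Over all tested genes 7.64% were called higher and 5.75% lower, so a majority not called is not particular to this list. At an unadjusted p below 0.05, 1 was higher and 2 were lower. The one called was Myh1, the myosin heavy chain of type IIx fibres, which rose by 0.67, and by 0.72 and 1.85 at its other probe sets. The count called lower, 0, became 2 under quantile normalization and 1 without wild-type animal 3.

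Other genes of the thin filament and its ends changed in both directions. Of 20 tested, 5 were called higher, 7 lower and 8 were not called, with a median of -0.19. The shares over all tested genes were 7.64% higher and 5.75% lower. Lmod2, a leiomodin that adds actin at the pointed end, rose by 1.88, from 266.3 to 456.3 in wild-type animals to 1221.6, 1580.1 and 1279.0 in transgenic animals 1, 2 and 3, which did not overlap. Kbtbd13, a kelch protein linked to nemaline myopathy, rose by 0.86. Klhl40, a kelch protein that stabilises Lmod3 and nebulin, fell by 1.12, from 1000.0 to 1464.3 in wild-type animals to 519.3 to 622.4 in transgenic animals. Cap2, an actin-binding protein of the sarcomere, fell by 0.86. The signals of these 4 genes in transgenic animal 3 were between those of the other transgenic animals or within 1.02 times the higher of them. The number called lower dropped to 4 without wild-type 1, wild-type 2 or any 1 transgenic array and without a filter, and the number called higher dropped to 3 without transgenic 1. Without the intensity trend 1 was called higher and 3 lower.

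Troponin T and tropomyosin transcripts are spliced into many forms, and the splicing factors of striated muscle were read as well. Of 10 tested, 2 were called lower and 8 were not called by limma, with a median of 0.05. Beside this, 7.64% of all tested genes were called higher and 5.75% lower. At an unadjusted p below 0.05, 3 were higher and 3 lower. Celf2, a regulator of alternative splicing in heart and muscle, fell by 0.58 and Rbm24, an activator of muscle exons, fell by 0.49. Of the 4 other tested probe sets of each gene, 2 were called lower and 2 were not called. Celf1, a related splicing factor named after its values were seen, was not called at its brightest probe set (-0.07) and was called lower at 2 of 4 others (-0.77 and -0.61). Both calls at the brightest probe sets were lost without transgenic 1, and 1 was left without wild-type 1, wild-type 2 or transgenic 2. Whether the exons of the members differed was not measured here.

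Of 11 tested transcription factors tied to troponin gene control, 3 were called lower and 8 were not called by limma, with a median of -0.22. Among all tested genes 7.64% were called higher and 5.75% lower. At an unadjusted p below 0.05, 2 were higher and 4 lower. Sox6, a repressor of slow-fibre genes in fast muscle, fell by 0.93, from 2202.9, 2192.1 and 1619.6 in wild-type animals 1, 2 and 3 to 1084.5, 963.8 and 1067.0 in transgenic animals 1, 2 and 3. The groups were apart, and transgenic animal 3 was between the others. The 3 other tested Sox6 probe sets had differences of -0.85, -0.65 and -0.46 (limma adjusted p = 0.00153, 0.00329 and 0.0614). Eya1, a transcriptional cofactor of the fast-fibre programme, fell by 0.84, with 1 of its 2 other tested probe sets called lower. Mef2c, a muscle enhancer factor, fell by 0.38 at its brightest probe set, a call lost without transgenic animal 3 (limma adjusted p = 0.0950). Its other probe sets had differences of -0.25, -0.31 and -0.41, not called, and of -0.60, called lower (limma adjusted p = 0.191, 0.123, 0.103 and 0.0200). The count called lower was 5 without wild-type 3.

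Markers of other cell types in the muscle were read on the same arrays, where 7.64% of all tested genes were called higher and 5.75% lower. Of 5 tested adipocyte markers and 6 fibroblast markers 0 were called in either direction by limma, and at an unadjusted p below 0.05 the counts were 0 and 3, all lower. Adipocyte markers summed to 26420 in wild-type animal 3 and to 11500 to 17370 elsewhere, and wild-type animal 3 also had the lowest Tnnt1 signal. Fibroblast markers summed to 29490 to 35270 in wild-type and 28620 to 29020 in transgenic muscle. Of 5 tested smooth muscle markers Actg2, the enteric smooth muscle actin, was called lower by 0.81, and of 7 leukocyte markers Lyz2, a lysozyme of myeloid cells, was called lower by 0.55. Both calls were lost without the intensity trend or without wild-type 1, that of Actg2 also without wild-type 2, and that of Lyz2 also without transgenic 1 or transgenic 3. The summed signals of smooth muscle markers were 2267 to 3029 in wild-type and 2713 to 3437 in transgenic muscle, and those of leukocyte markers 3148 to 3489 and 2214 to 2826. Of 8 skeletal muscle markers 1 was called, Mb, the oxygen store myoglobin, which rose by 1.45. Other genes were not called at the brightest probe set but called lower at 1 other: the muscle creatine kinase Ckm (-0.57), Ttn (-0.66), the leukocyte marker C1qb (-0.67) and the transcription factor Tbx15 (-0.54). With 1 array left out, 1 smooth muscle marker was called higher without wild-type 1 and 1 skeletal muscle marker lower without wild-type 3. The part of these cell types in the members' values was not tested.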

How the data were processed

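Total RNA of quadriceps was extracted with Trizol and labelled as biotin cRNA for Affymetrix arrays, as the labels' protocols say. The deposited table holds signal intensities on a linear scale, and the submitters' processing notes name MAS5, with version and settings not given in the sources used here. Neither detection calls nor scanner files were used. Replicate numbers come from the titles, and no 2 arrays held identical values (0 identical pairs). Of 45101 probe sets, 64 controls were left out. Of the rest, 34945 carry 1 gene symbol in the platform annotation, 932 several and 9160 none, and no name was taken from a probe set with several.

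Signals were transformed as log2(signal + 16), which understates the changes of dim probe sets, with no further normalization. Probe sets with a mean signal above the 40th percentile (27018) were fitted with limma 3.58.1 in R 4.3.3 (lmFit, then eBayes with an intensity trend). Tests were two-sided, and p-values were adjusted by Benjamini-Hochberg over all of them. The p-values set the difference between genotypes against the spread between these animals, which limma moderates toward a trend over all tested probe sets. A gene is read at its single-gene probe set of highest mean signal, and a gene's other probe sets are described where their calls differ for a member or a named gene. Permutation tests used scipy 1.17.1, and plots matplotlib 3.10.9 in Python 3.11.15. The fit was tested on simulated data with known changes. Promoters and their coordinates are from RefSeq for GRCm38.p6, and no genome or protein sequence was used here.

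The members and gene lists were chosen with earlier results of these data known. Named genes are all member probe sets, up to 4 called genes of each list with the largest absolute change, and the 3 genes nearest in profile to each slow troponin. Other genes were named after their values were seen. Alternatives changed the added constant, filter, scaling, variance model, choice of probe set, replicate block and set of arrays.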

Additional observations from a re-analysis of the deposited data

How the results depend on the processing

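The member called higher, Tnnt1, kept its call in 14 of 16 alternatives, both members called lower kept theirs in 26 of 32 combinations with alternatives, and members not called stayed so with the same sign in 266 of 303. Without the intensity trend 0 members were called higher and 1 lower, and without replicate 3 of both genotypes 0 were called higher. With 1 array left out the number called higher was 1 to 2 and the number called lower 1 to 2. Same-numbered animals of the genotypes did not deviate together (correlations of 0.07, -0.08 and -0.02, beside -0.09 to 0.11 for other pairs). Pairing by number was thus not seen, but these values cannot exclude it, and the main fit treats the animals as unpaired. With the replicate block 2741 probe sets were called in place of 3115, and Tpm1 1447713_at was then called (limma adjusted p = 0.0396). Over all tested probe sets, 1580 were called without the trend, and 1706, 1875, 1916 and 2073 without wild-type 1, wild-type 2, transgenic 1 and transgenic 2.

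Of the gene lists, without the trend 1 thin filament gene was called higher in place of 5 and 3 lower in place of 7, 0 splicing factors lower in place of 2, 1 transcription factor in place of 3, and 0 smooth muscle and 0 leukocyte markers in place of 1 each. Without a filter 4 thin filament genes were lower in place of 7, 1 splicing factor in place of 2, and 1 smooth muscle marker was higher in place of 0. Quantile normalization called 2 fast-fibre genes, 1 fibroblast and 1 skeletal muscle marker lower in place of 0, and common median scaling 1 fibroblast marker in place of 0 and 2 developing markers in place of 1. A pseudocount of 1 called 2 developing markers higher in place of 1. The filter at the 60th percentile called 2 in each direction, and 1 splicing factor higher in place of 0. The mean over probe sets called 2 developing and 2 leukocyte markers lower in place of 1, and 1 splicing factor higher in place of 0. Without replicate 3 of both genotypes 1 fibroblast marker was lower in place of 0, 1 splicing factor in place of 2 and 5 transcription factors in place of 3.

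Some differences that were not called changed sign, most of them near 0 and those of Tpm3 1449996_a_at and 1436958_x_at farther from it, and the cause was not tested. The change of Tpm3 minus Tpm1 was 0.12 with quantile normalization, 0.81 with the mean over probe sets, 0.15 without replicate 3 of both genotypes and -0.12 to 0.17 with 1 array left out. Under common median scaling the differences were -0.046 for Tnnt3, -0.0025 and -0.0057 for Tnni2 1416889_at and 1438609_x_at, -0.029 for Tnnc2 and -0.045 for Tpm3 1427567_a_at. With quantile normalization they were -0.037 for Tnni2 1438609_x_at, -0.0845 for Tnnc2, -0.007 for Tpm1 1423049_a_at, -0.0083 for Tpm2 1449577_x_at and -0.029 for Tpm3 1427567_a_at, while Tnnt3, which ranked 1 on every array, was set to one value on all arrays and gave 0. Without replicate 3 of both genotypes they were -0.0215 for Tnnt3, -0.0165 and -0.0395 for Tnni2 1416889_at and 1438609_x_at, -0.0015 for Tnnc2, -0.073 for Tpm2 1449577_x_at and -0.34 for Tpm3 1449996_a_at. With 1 array left out the ranges were -0.061 to 0.13 for Tnnt3, -0.0455 to 0.15 for Tnni2 1416889_at, -0.063 to 0.13 for Tnni2 1438609_x_at, -0.041 to 0.12 for Tnnc2, -0.15 to 0.13 for Tnnt2, -0.045 to 0.18 for Tpm1 1423049_a_at, -0.047 to 0.20 for Tpm2 1449577_x_at, -0.12 to 0.12 for Tpm3 1427567_a_at, -0.43 to 0.031 for Tpm3 1436958_x_at and -0.55 to 1.88 for Tpm3 1449996_a_at. Detection calls were not used, so whether the dim Tnnt1 and Tnnt2 signals exceed background is not known.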
